A study of Mus musculus with 17 samples.

Results

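Voltage-gated calcium channels are described here through 10 genes, chosen by symbol from the 78298 genes of each library: 8 that encode pore-forming subunits and 2 that encode auxiliary subunits. RNA abundance was measured in brainstem tissue labelled as locus coeruleus, the main noradrenergic nucleus of the brain, from male C57BL/6 mice whose age is not given. Of the 17 libraries, 5 came from mice given vindeburnol, a synthetic compound related to the vinca alkaloid vincamine, and 6 from mice given VB-127, which the labels call its derivative. Both compounds were dissolved in water and given by oral gavage at 20 mg/kg once a day for 5 days, with tissue taken 24 h after treatment, and the other 6 libraries came from untreated mice (controls). No group received gavage without a compound, so an effect of a compound and an effect of the gavage cannot be told apart. Whether each library is 1 mouse is not stated, and the p-values below therefore rest on the spread between libraries, which may be technical.

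The pore-forming subunit of a voltage-gated calcium channel opens when the membrane depolarizes and lets calcium in, which couples electrical activity to transmitter release, firing pattern and gene expression. The L-, P/Q-, N- and R-type channels mostly need stronger depolarization than T-type channels, which open near the resting potential and support burst and rebound firing. The auxiliary alpha2delta subunits are largely extracellular and raise the number of channels at the cell surface. In noradrenergic neurons of the rodent locus coeruleus, L-type and T-type currents take part in pacemaking and in oscillations of the membrane potential below the firing threshold.

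Levels are given as TPM, a transcript abundance scaled for length and to the same total in every library, so levels of different genes can be set side by side within a library. Differences between groups are on the log2(TPM + 1) scale and understate the change of genes with low values. They come from one limma model of all 17 libraries, with p-values adjusted by the Benjamini-Hochberg method over the 16153 genes that reached 1 TPM in at least 5 libraries. All 10 channel genes passed that filter. A gene was called at an adjusted p under 0.05. In bulk tissue, fewer cells of a type and less RNA per cell cannot be told apart.

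The label of the tissue was checked against its defining genes. Dbh, which encodes the enzyme that makes noradrenaline, was at 18.9 TPM in control replicate 1 and 12.3 TPM in control replicate 6, but lay between 0 and 2.57 TPM in the other libraries, with 0 in vindeburnol replicate 1 and in VB-127 replicates 1 and 4. Slc6a2, the noradrenaline transporter gene, was at most 0.929 TPM outside control replicates 1 and 6, and of 6 noradrenergic markers it was 1 of 2, beside Phox2a, that did not reach the filter. The summed level of the 6 markers was 41.5 to 140 TPM after vindeburnol, 63.8 to 198 TPM after VB-127 and 80.6 to 173 TPM in controls. The library with the highest sum, VB-127 replicate 1, had 0 TPM of Dbh and Slc6a2 and the highest level of the dopamine transporter gene Slc6a3, 124 TPM, so the sum does not follow the genes that define noradrenergic neurons. The calcium channel values therefore describe the dissected brainstem tissue, and which neurons they come from was not tested.

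One library stood apart for the channel genes. In control replicate 4 the 10 genes summed to 96.1 TPM, while the other libraries held 149 to 249 TPM. It had the lowest value of 9 of the 10 genes, Cacna1c being the exception with its lowest value in VB-127 replicate 2, and all 10 lay below their own medians over the libraries. The same library had the lowest mean level of 12 pan-neuronal markers, at 7.35 on the log2(TPM + 1) scale against 7.57 to 8.10 in the others, and the largest share of its TPM in the short noncoding RNA Bc1, at 35.3% against 16.1% to 29.3%. It also had the lowest long-transcript index, at -0.42. This index is the median log2 deviation of 2002 coding genes with a transcript of at least 6000 bases minus that of 2716 genes with transcripts under 2000 bases. The channel genes are long, with a median longest transcript of 9020.5 bases against 3442 bases for the coding genes tested. At the other end, vindeburnol replicate 2 had the highest mean level of the 10 genes, the smallest Bc1 share, 16.1%, and an index of 0.17. What part library composition has in the channel values was not tested, and values without control replicate 4 stand beside the fitted comparisons with controls. Control replicate 6, with the highest index (0.21), the highest pan-neuronal level (8.10) and a Bc1 share of 17.5%, had a channel level near the mean, a deviation of 0.0066 that ranked 8 from the lowest of 17.

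**Figure D1:**
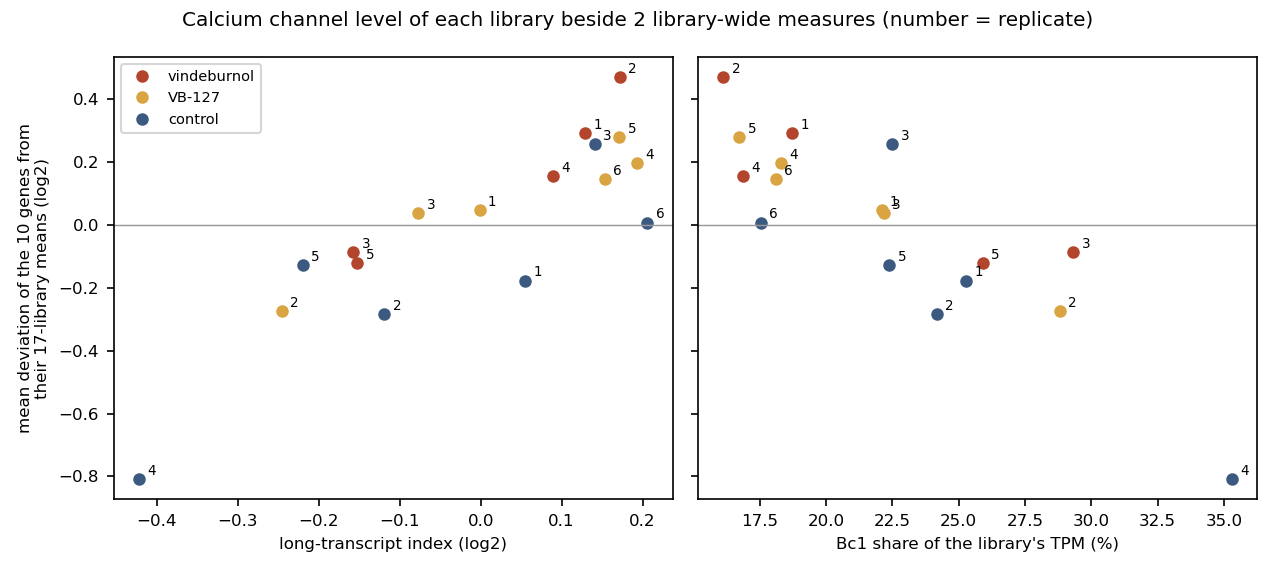
Mean deviation of the 10 channel genes from their own means over 17 libraries (vertical axis, log2) beside the long-transcript index (left, log2) and the share of TPM taken by Bc1 (right, %). Each point is a library, coloured by group and numbered by replicate; control replicate 4 lies alone at -0.81, with an index of -0.42 and a Bc1 share of 35.3%.

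By their means over all libraries, the L-type genes Cacna1c and Cacna1d were the 2 lowest of the set, although in vindeburnol libraries Cacna1d averaged above the R-type gene Cacna1e. Cacna1c (ENSMUSG00000051331), the main L-type subunit of heart and brain, had 7.44, 7.32, 4.80, 5.25 and 4.59 TPM in vindeburnol replicates 1 to 5. It ran from 3.69 TPM through a median of 6.43 TPM to 7.67 TPM after VB-127, and from 3.85 TPM through 4.65 TPM to 5.88 TPM in controls. The groups overlapped, although 2 of 5 vindeburnol and 4 of 6 VB-127 libraries lay above the highest control. Cacna1d (ENSMUSG00000015968) encodes the L-type subunit that opens at more negative voltages and supports pacemaking in neurons. It had 10.01, 19.3, 7.16, 9.54 and 8.53 TPM in vindeburnol replicates 1 to 5. After VB-127 it ran from 6.09 TPM through 9.09 TPM to 11.6 TPM, and in controls from 4.00 TPM through 7.32 TPM to 8.72 TPM. Vindeburnol replicate 2 was the highest of all libraries by a wide margin, whereas the range of the other vindeburnol libraries overlapped those of VB-127 and controls. Cacna1d exceeded Cacna1c in 17 of 17 libraries and made up 63.9% ± 5.80 of the L-type TPM after vindeburnol (SD, n = 5), 59.2% ± 2.25 after VB-127 (SD, n = 6) and 58.6% ± 4.74 in controls (SD, n = 6).

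Cacna1d had the widest range of the 10 genes, 4.82-fold between control replicate 4 and vindeburnol replicate 2, and RefSeq lists a pair of transcription start sites for it. The sequence around both starts is shown because they differ in composition while the deposited value is 1 sum for the gene and does not separate them. Each window covers 250 bases before to 50 bases after the start on the minus strand of GRCm38.p6, an older build than that of the files. Capitals mark GGGCGG, the core of the GC box, on either strand. They also mark TATAAA, the usual letters of the box at which many polymerase II promoters are bound upstream of the start, on either strand. Overlapping matches run together and were counted separately.
Cacna1d start at chr14:30353437-30353736: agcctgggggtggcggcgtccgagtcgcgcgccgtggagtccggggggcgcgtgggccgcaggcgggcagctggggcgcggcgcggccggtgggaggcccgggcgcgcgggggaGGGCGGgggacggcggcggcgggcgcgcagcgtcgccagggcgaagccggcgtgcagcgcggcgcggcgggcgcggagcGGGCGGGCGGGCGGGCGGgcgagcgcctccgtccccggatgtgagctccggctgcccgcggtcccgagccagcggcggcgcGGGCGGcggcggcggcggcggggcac
Cacna1d start at chr14:30491107-30491406: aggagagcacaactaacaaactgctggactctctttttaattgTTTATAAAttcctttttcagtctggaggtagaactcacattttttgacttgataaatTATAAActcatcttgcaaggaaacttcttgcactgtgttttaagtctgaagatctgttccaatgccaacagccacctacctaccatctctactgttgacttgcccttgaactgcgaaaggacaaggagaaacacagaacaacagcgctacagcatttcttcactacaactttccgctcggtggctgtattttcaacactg
The first window was 87.3% G or C, with 63 CpG pairs and 6 GGGCGG matches, and held no TATAAA. The second was 40.3% G or C, with 4 CpG pairs, no GGGCGG and 3 TATAAA matches. All 3 lay in the upstream part of the window, not close to the start. Among 32851 windows of the same length over all RefSeq genes, 35.66% held GGGCGG and 13.62% held TATAAA on either strand, and the median G or C content was 52.67%. RefSeq windows were found for 7 of the 10 genes, not for Cacna1a, Cacna1g and Cacna1h, and the 10 windows of those 7 genes ran from 40.3% to 87.3% G or C. The matches describe letters in these windows and do not show that a factor binds there.

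Among the channels of the presynaptic terminal, the P/Q-type gene was the most abundant. Cacna1a (ENSMUSG00000034656), whose channel drives transmitter release at most central synapses, had 46.4, 35.4, 23.7, 25.7 and 27.2 TPM in vindeburnol replicates 1 to 5. It ran from 31.8 TPM through 33.1 TPM to 36.5 TPM after VB-127 and from 21.3 TPM through 25.0 TPM to 31.1 TPM in controls. All 6 VB-127 libraries lay above all 6 controls, while the vindeburnol libraries reached both below and above the VB-127 range. The VB-127 libraries were also close together, with a coefficient of variation of 4.77%, against 29.5% after vindeburnol and 16.9% in controls. Cacna1b (ENSMUSG00000004113), the N-type gene, encodes the second main channel of transmitter release. It had 22.9, 18.9, 17.5, 22.3 and 18.9 TPM in vindeburnol replicates 1 to 5, then 12.8 TPM through 15.3 TPM to 23.8 TPM after VB-127 and 7.28 TPM through 14.7 TPM to 22.1 TPM in controls. The vindeburnol libraries were the least spread, and 4 of 6 controls and 5 of 6 VB-127 libraries lay below the lowest of them. Cacna1e (ENSMUSG00000004110), the R-type gene, had 9.56, 14.6, 7.21, 10.2 and 7.75 TPM in vindeburnol replicates 1 to 5. It ran from 7.28 TPM through 9.42 TPM to 12.5 TPM after VB-127 and from 5.46 TPM through 9.01 TPM to 14.4 TPM in controls. Its 3 groups overlapped widely, with the highest vindeburnol library and the highest control close together.

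The T-type genes together held the largest share of the pore-forming transcripts, and Cacna1g was the highest of them on average. Cacna1g (ENSMUSG00000020866), the main T-type gene of thalamic relay neurons, had 31.8, 52.3, 42.3, 31.9 and 30.9 TPM in vindeburnol replicates 1 to 5. It had 47.4, 25.3, 32.1, 39.7, 34.9 and 41.9 TPM in VB-127 replicates 1 to 6. In control replicates 1 to 6 it had 16.6, 19.0, 39.6, 11.7, 23.0 and 27.9 TPM. Of the controls, 5 of 6 lay below every vindeburnol library and 4 of 6 below every VB-127 library, and control replicate 3 lay within the range of both. Cacna1h (ENSMUSG00000024112), a T-type gene also prominent in sensory neurons, had 17.3, 15.8, 12.4, 12.2 and 10.3 TPM in vindeburnol replicates 1 to 5. It ran from 10.7 TPM through 12.3 TPM to 14.4 TPM after VB-127 and from 6.83 TPM through 9.31 TPM to 14.4 TPM in controls. Again control replicate 3 was the highest control, and 4 of 6 controls lay below every library of either compound. Cacna1i (ENSMUSG00000022416), the slowest T-type channel, had 21.8, 22.3, 14.05, 23.0 and 11.4 TPM in vindeburnol replicates 1 to 5. It ran from 10.96 TPM through 14.8 TPM to 18.4 TPM after VB-127 and from 9.76 TPM through 15.9 TPM to 20.0 TPM in controls. Of the vindeburnol values 3 of 5 lay above the controls' range and the others within it, and all VB-127 values lay within it.

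Both auxiliary genes were abundant. Cacna2d1 (ENSMUSG00000040118), which encodes the main binding site of gabapentin and pregabalin, had 22.0, 27.9, 16.9, 22.8 and 17.7 TPM in vindeburnol replicates 1 to 5. It ran from 14.9 TPM through 23.0 TPM to 24.5 TPM after VB-127 and from 11.1 TPM through 19.1 TPM to 28.5 TPM in controls. Cacna2d2 (ENSMUSG00000010066), whose loss causes ataxia and seizures in mice, had 33.4, 34.8, 30.4, 39.9 and 30.3 TPM in vindeburnol replicates 1 to 5. It ran from 30.2 TPM through 35.3 TPM to 43.8 TPM after VB-127 and from 14.8 TPM through 31.3 TPM to 39.1 TPM in controls. For both genes the groups overlapped over most of their range. The ratio of Cacna2d2 to Cacna2d1 was 1.61 ± 0.226 after vindeburnol (SD, n = 5), 1.76 ± 0.298 after VB-127 (SD, n = 6) and 1.56 ± 0.384 in controls (SD, n = 6), and control replicate 1, at 0.965, had more Cacna2d1 than Cacna2d2.

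**Figure D2:**
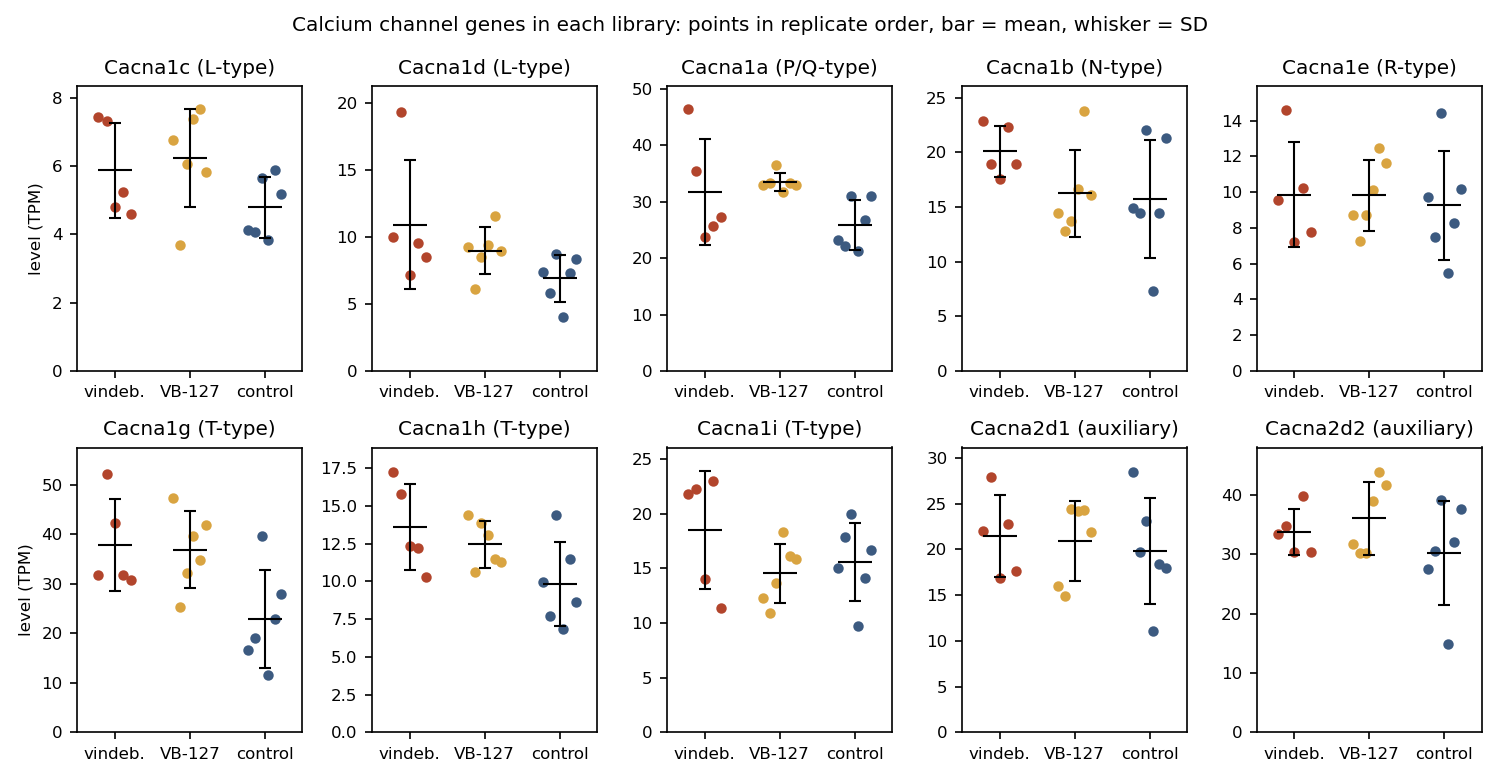
Level of each channel gene (TPM, linear axis from 0) in every library, with the mean and SD of vindeburnol (n = 5), VB-127 (n = 6) and control (n = 6) libraries. Points run from replicate 1 on the left; in the Cacna1a panel the 6 VB-127 points, at 31.8 to 36.5 TPM, lie above the 6 controls, at 21.3 to 31.1 TPM, and in every other panel the groups overlap.

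Ordered by mean level over all 17 libraries, Cacna2d2 (33.4 TPM), Cacna1g (32.3 TPM) and Cacna1a (30.3 TPM) came first, followed by Cacna2d1 (20.7 TPM), Cacna1b (17.2 TPM) and Cacna1i (16.1 TPM). Cacna1h (11.9 TPM), Cacna1e (9.63 TPM), Cacna1d (8.81 TPM) and Cacna1c (5.62 TPM) came last. Only the step between Cacna1a and Cacna2d1 and the step between Cacna1i and Cacna1h exceeded the larger SD of the neighbours. All other neighbours differed by less than that spread, although Cacna1d lay above Cacna1c within every library. The order at the top was not the same in every group. Cacna1g exceeded Cacna1a in 4 of 5 vindeburnol and 4 of 6 VB-127 libraries but in 1 of 6 controls, which is a description of ranks and was not tested.

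The make-up of the 8 pore-forming genes was compared as shares of their summed TPM, which cancel a level common to all of them in a library. The sum itself was 148 ± 27.5 TPM after vindeburnol (SD, n = 5), 139 ± 15.2 TPM after VB-127 (SD, n = 6) and 111 ± 29.3 TPM in controls (SD, n = 6). Its medians were 140, 145 and 106 TPM in that order, and control replicate 4 had the lowest sum of all libraries, 70.1 TPM. T-type genes held 47.2% ± 4.25 after vindeburnol, 45.9% ± 3.65 after VB-127 and 43.2% ± 2.80 in controls. The P/Q-type gene held 21.3% ± 4.07, 24.5% ± 3.53 and 24.0% ± 3.48 in the same groups. The N-type gene held 13.8% ± 2.34 after vindeburnol, 11.7% ± 2.08 after VB-127 and 13.9% ± 2.07 in controls, the L-type genes 11.1% ± 1.90, 10.9% ± 1.27 and 10.7% ± 0.967, and the R-type gene 6.59% ± 0.983, 7.05% ± 0.901 and 8.26% ± 0.933. These shares overlapped between the groups. Within the T-type sum, Cacna1g held 44.8% to 61.6% after vindeburnol, 53.9% to 64.0% after VB-127 and 39.9% to 53.5% in controls. The VB-127 and control ranges were adjacent without overlapping, while the vindeburnol range overlapped both. The mean share of Cacna1g was 54.1% ± 7.42, 57.4% ± 4.07 and 46.2% ± 5.82 in that order. As a share of the pore-forming sum, Cacna1i was lower after both compounds, at 12.4% ± 2.61, 10.5% ± 1.35 and 14.2% ± 2.102. In VB-127 libraries its highest share, 12.5%, lay just under the lowest control share, 12.7%. The shares add to a fixed total, so a larger share of Cacna1g leaves less for the other genes. In TPM, Cacna1i averaged 18.5 after vindeburnol, 14.5 after VB-127 and 15.6 in controls. No p-value is given for the shares, which were computed from genes already chosen as a set. How often shares of other genes separate the groups in this way was not computed.

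**Figure D3:**
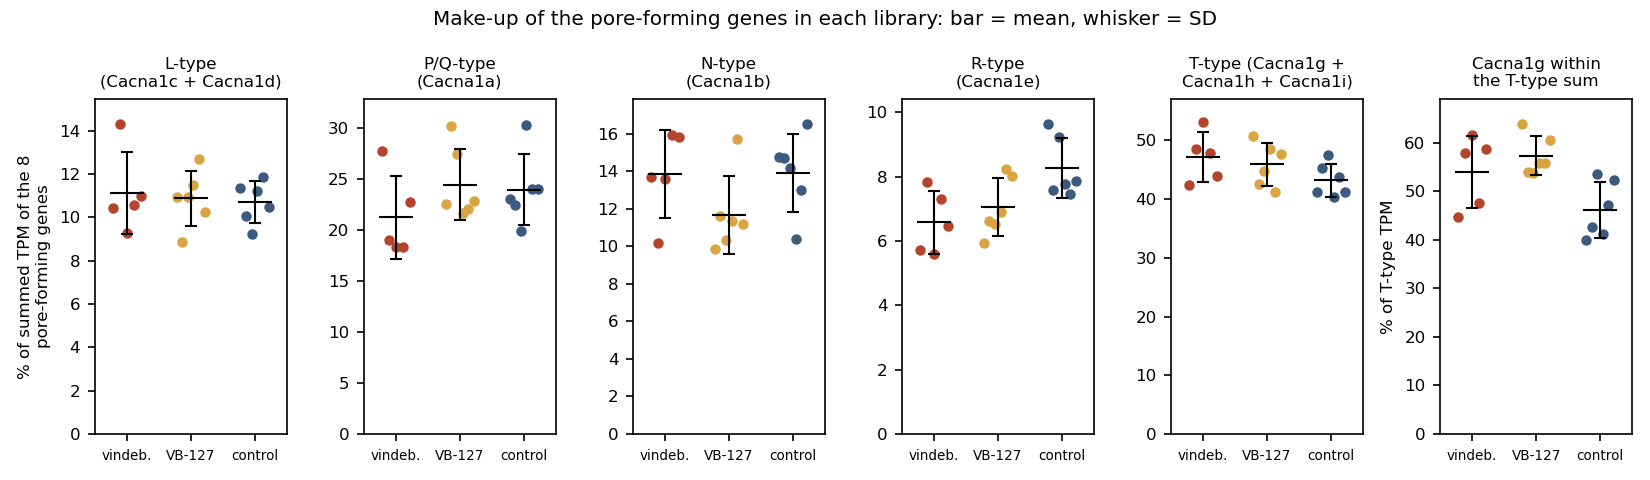
Share of the summed TPM of the 8 pore-forming genes held by each channel type (first 5 panels, %) and share of the T-type TPM held by Cacna1g (last panel, %), per library with the mean and SD of each group. The share of Cacna1g within the T-type sum is 53.9% to 64.0% in VB-127 libraries and 39.9% to 53.5% in controls. In vindeburnol libraries it is 44.8% to 61.6% and overlaps both.

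The first comparison asked whether channel transcripts differ between vindeburnol and no treatment. Cacna1g had the largest difference of the 10 genes, averaging 37.8 ± 9.35 TPM in the 5 vindeburnol libraries and 23.0 ± 9.86 TPM in the 6 controls (± SD), higher than the control mean in 5 of 5 libraries. On the log2 scale it differed by 0.76 (SE 0.23, 95% interval 0.28 to 1.25; limma adjusted p 0.4715). Cacna1d followed with 10.9 ± 4.81 against 6.92 ± 1.75 TPM, a log2 difference of 0.54 (SE 0.21, 95% interval 0.11 to 0.98, adjusted p 0.5376), and Cacna1h with 13.6 ± 2.87 against 9.84 ± 2.79 TPM, a log2 difference of 0.44 (SE 0.16, 95% interval 0.10 to 0.79, adjusted p 0.5176). No channel gene passed the test: limma called 0 of the 10, where it called 0% of all 16153 genes, and Cacna1g ranked 124 by p among them. At an unadjusted p under 0.05, 3 of the 10 were higher, namely Cacna1g, Cacna1d and Cacna1h, where 6.95% of all genes were higher, and 0 were lower, where 1.22% of all genes were. The libraries of both groups overlapped for each of the 10, while 0.458% of all genes lay higher and 0.0619% lower without overlap.

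The other 7 genes had log2 differences between 0.10 and 0.40 for vindeburnol against controls. The N-type gene Cacna1b had the largest of these, 0.40 (SE 0.20, 95% interval -0.02 to 0.83, adjusted p 0.6168), and lay above the control mean in 5 of 5 libraries. The P/Q-type gene Cacna1a was at 0.25 (95% interval -0.05 to 0.55), Cacna1c at 0.24 (-0.12 to 0.59), Cacna1i at 0.22 (-0.18 to 0.61), Cacna2d2 at 0.20 (-0.17 to 0.58), Cacna2d1 at 0.14 (-0.26 to 0.54) and the R-type gene Cacna1e at 0.10 (-0.32 to 0.51). Values of all 10 genes were above 0, as were those of 69.7% of all genes tested, and their median was 0.25 against 0.08 for all genes. In controls without replicate 4, Cacna1g averaged 25.2 ± 9.12 TPM (n = 5), and the differences of Cacna1g, Cacna1d and Cacna1h were 0.60, 0.42 and 0.36. Those of Cacna1b, Cacna1i and Cacna2d2 were 0.21, 0.10 and 0.02. Without that library 8 of the 10 values were above 0 and the median was 0.20, against 0.03 for all genes. The difference of Cacna1d was 0.33 without vindeburnol replicate 2, and that of Cacna1a was 0.11 without vindeburnol replicate 1, its highest library. Library weights gave a median of 0.12, against 0.03 for all genes, with 8 of 10 above 0. Cacna1h was then at 0.24 and Cacna1i at 0.01. With these weights 1 of the 10 was higher at an unadjusted p under 0.05, beside 567 of all 16153 genes. Quantile normalization gave a median of 0.16, against -0.004 for all genes.

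VB-127 was compared with the same controls, so the values that follow share them with those above. Cacna1g was again the gene with the largest difference, averaging 36.9 ± 7.78 TPM in the 6 VB-127 libraries and 23.0 ± 9.86 TPM in the 6 controls (± SD), higher than the control mean in 6 of 6 libraries. On the log2 scale it differed by 0.73 (SE 0.22, 95% interval 0.27 to 1.19; limma adjusted p 0.4611). Cacna1a had 33.5 ± 1.60 against 25.9 ± 4.38 TPM, a log2 difference of 0.37 (SE 0.14, 95% interval 0.09 to 0.66, adjusted p 0.4697). It was 1 of 10 channel genes whose VB-127 and control libraries did not overlap, where 0.656% of all genes lay higher and 0.0124% lower without overlap, and the lowest VB-127 library and the highest control were 31.8 and 31.1 TPM. Cacna1h had 12.5 ± 1.53 against 9.84 ± 2.79 TPM, a log2 difference of 0.34 (SE 0.16, 95% interval 0.02 to 0.67, adjusted p 0.4821), higher in 6 of 6 libraries. No channel gene passed the test, with 0 of 10 called by limma where 0.00619% of all genes were called. At an unadjusted p under 0.05, 3 of the 10 were higher, Cacna1g, Cacna1a and Cacna1h, where 9.67% of all genes were higher, and 0 were lower, where 0.532% were.

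Of the remaining genes, the L-type pair had log2 differences of 0.34 for Cacna1d (95% interval -0.07 to 0.76, adjusted p 0.5489) and 0.31 for Cacna1c (-0.03 to 0.65, adjusted p 0.5228). Cacna2d2 was at 0.29 (-0.07 to 0.65) and lay above the control mean in 6 of 6 libraries. Cacna1e, Cacna2d1 and Cacna1b were at 0.11 (-0.29 to 0.50), 0.10 (-0.28 to 0.48) and 0.09 (-0.32 to 0.50), values that turned negative under median-ratio scaling. The T-type gene Cacna1i was the one gene below 0, at -0.08 (-0.46 to 0.30). Values above 0 were found for 9 of the 10 genes and for 79.4% of all genes tested, with medians of 0.30 and 0.11. Median-ratio scaling moved the median of all genes to 0.01 and left the channel genes at a median of 0.19, with 6 of 10 above 0. It gave Cacna1g, Cacna1a and Cacna1h differences of 0.61, 0.25 and 0.23. With that scaling 2 of the 10, Cacna1g and Cacna1a, were higher at an unadjusted p under 0.05, beside 629 of all 16153 genes. Among all genes at that level, the scaling moved the share that was higher to 52.5%, against 94.8% without it. In the vindeburnol comparison it moved this share to 52.0%, against 85.1%. Without control replicate 4, Cacna1g, Cacna1a and Cacna1h differed by 0.57, 0.32 and 0.25, and 6 of the 10 values were above 0. Again 2 of the 10, Cacna1g and Cacna1a, were higher at an unadjusted p under 0.05, beside 979 of all 16153 genes. Cacna1d and Cacna2d2 then differed by 0.22 and 0.11 and Cacna1i by -0.20, and the median was 0.16, against 0.06 for all genes.

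**Figure D4:**
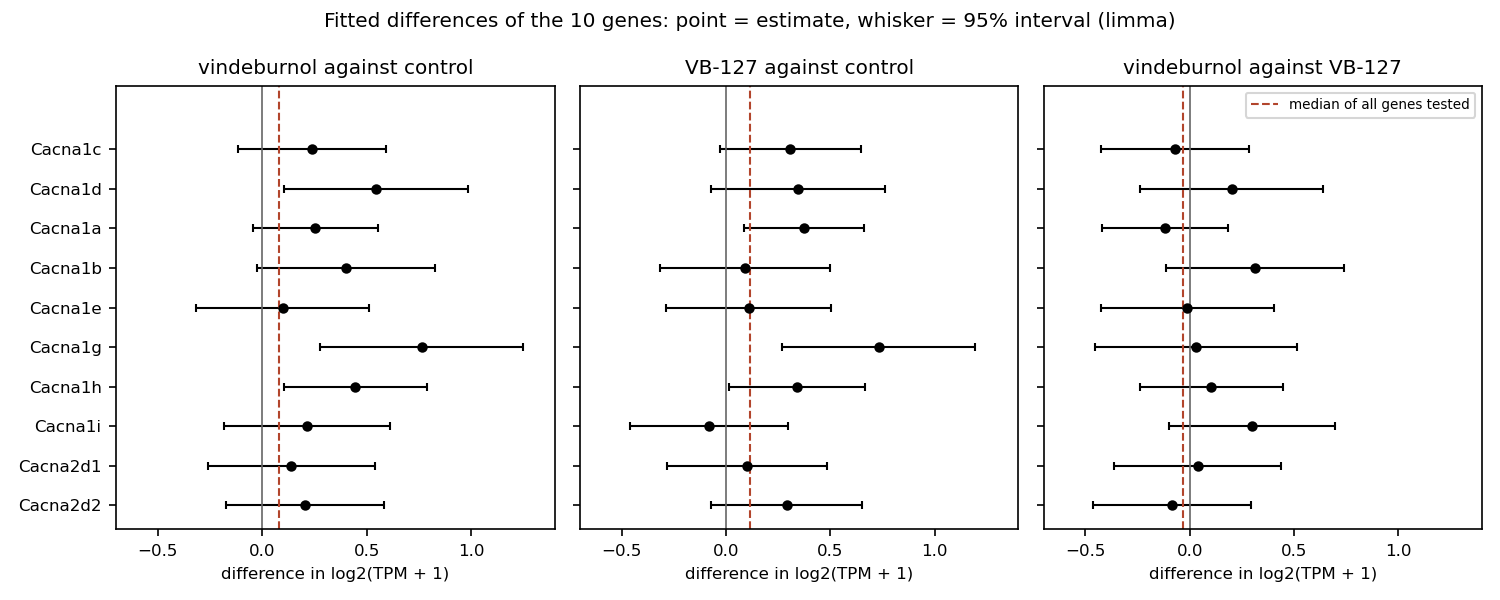
Fitted difference of each channel gene in log2(TPM + 1) with its 95% interval from limma, for vindeburnol against control, VB-127 against control and vindeburnol against VB-127; the dashed line is the median of all genes tested. Cacna1g lies farthest to the right in both comparisons with controls, at 0.76 and 0.73, and every interval spans 0 between the compounds.

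Vindeburnol was compared with VB-127, which was given at the same dose for the same time, in 10 genes. limma called 0 of the 10 and 0% of all genes, and none of the 10 reached an unadjusted p of 0.05, a level at which 0.891% of all genes were higher and 2.49% lower. The largest differences were those of Cacna1b, averaging 20.1 ± 2.35 TPM in the 5 vindeburnol libraries and 16.3 ± 3.96 TPM in the 6 VB-127 libraries (± SD), and Cacna1i, with 18.5 ± 5.38 against 14.5 ± 2.74 TPM. Their log2 differences were 0.31 (SE 0.20, 95% interval -0.11 to 0.74) and 0.30 (SE 0.19, 95% interval -0.10 to 0.69), each with an adjusted p of 0.9999. For Cacna1b, 5 of 5 vindeburnol libraries lay above the VB-127 mean. Both genes had an unadjusted p under 0.05 with median-ratio scaling, quantile normalization, or the pan-neuronal mean level or the long-transcript index as a covariate, with adjusted p of 0.799 or more. At that unadjusted level, median-ratio scaling gave 312 of all 16153 genes higher and 382 lower, against 144 and 402 without it. Quantile normalization gave 358 and 367, the pan-neuronal covariate 404 and 444, and the long-transcript covariate 256 and 569. Cacna1g differed by 0.03, with an interval of -0.45 to 0.52 that leaves room for a difference of either sign, and Cacna1h by 0.10 (-0.24 to 0.44). Cacna1d was at 0.20 (-0.24 to 0.64), a value of -0.01 without vindeburnol replicate 2, and Cacna2d1 at 0.04 (-0.36 to 0.44). Cacna1a, Cacna2d2, Cacna1c and Cacna1e lay lower in value after vindeburnol, at -0.12 (-0.42 to 0.18), -0.09 (-0.46 to 0.29), -0.07 (-0.42 to 0.29) and -0.01 (-0.43 to 0.40). The median of the 10 was 0.03, against -0.03 for all genes, and 6 of 10 were above 0, where 38.9% of all genes were.

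Marker genes of other cells were set beside Cacna1g, with the largest differences against controls, and Cacna1a, whose VB-127 and control libraries did not overlap. Both genes are also expressed in cerebellar Purkinje cells. Vindeburnol replicate 3 had the highest level of the Purkinje gene Pcp2, 20.3 TPM, against 0 to 4.88 TPM in the other libraries. All 5 Purkinje markers were tested, and their summed level was 48.7 to 92.0 TPM after vindeburnol, 40.7 to 74.0 TPM after VB-127 and 28.2 to 72.9 TPM in controls. Vindeburnol replicate 3 had the second highest Cacna1g of its group and the lowest Cacna1a, and without it the vindeburnol differences of Cacna1g and Cacna1a were 0.72 and 0.34. Chat, of cholinergic neurons, averaged 2.69 TPM after vindeburnol, 2.96 TPM after VB-127 and 5.98 TPM in controls, and the 4 cholinergic markers, all tested, summed to 13.6 to 32.6, 14.7 to 32.1 and 18.0 to 62.6 TPM in these groups. Tph2, of serotonergic neurons, averaged 48.3, 58.7 and 81.1 TPM, and the 3 serotonergic markers, all tested, summed to 11.3 to 145, 1.83 to 159 and 56.1 to 202 TPM. Acta2, of vessel wall cells, had 2.55 TPM in control replicate 1, 3.45 TPM in control replicate 2 and 14.7 to 27.5 TPM in the others. Both of these controls were among the 3 lowest libraries for Cacna1g. Control replicate 4, the lowest for Cacna1g, had the highest Acta2, 27.5 TPM. Vindeburnol replicate 2, the highest for Cacna1g, had 14.8 TPM of Acta2. The 6 mural markers, all tested, summed to 139 to 168 TPM after vindeburnol, 157 to 221 TPM after VB-127 and 72.0 to 186 TPM in controls. The part of these markers in the channel values was not tested. The 12 pan-neuronal markers, all tested, summed to 3358 to 4157 TPM after vindeburnol, 3564 to 4325 TPM after VB-127 and 3008 to 4932 TPM in controls. With their mean level as a covariate, the Cacna1g difference was 0.77 for vindeburnol and 0.65 for VB-127, and with the long-transcript index as a covariate, an alternative added after seeing the data, it was 0.66 and 0.60.

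The remaining genes with the symbol of a calcium channel subunit and the genes that act beside the channels were counted in the same way. Of 16 other subunit genes, 12 were tested and limma called 0 of them in each comparison. Cacng2, Cacng3, Cacng4, Cacng5, Cacng7 and Cacng8 are among the 12 by their symbols, so the counts are not of calcium channel subunits alone. Against controls, 10 of the 12 had values above 0 after vindeburnol and 10 after VB-127, where 69.7% and 79.4% of all genes did, with medians of 0.19 and 0.15. At an unadjusted p under 0.05, 1 and 0 were higher, where 6.95% and 9.67% of all genes were. Cacnb1, which encodes a cytoplasmic beta subunit, had 34.5 TPM on average after vindeburnol and 33.9 TPM after VB-127, against 29.5 TPM in controls. Its log2 differences were 0.22 (SE 0.10, adjusted p 0.6058) and 0.20 (SE 0.10, adjusted p 0.4923). Cacnb3, another beta subunit gene, differed by 0.22 after vindeburnol (SE 0.11, adjusted p 0.6168), with 40.4 against 34.7 TPM. Between the compounds 7 of the 12 had values above 0, where 38.9% of all genes did, with a median of 0.01. Cacng2, which encodes stargazin, an auxiliary subunit of AMPA receptors, averaged 23.7 TPM after vindeburnol against 30.4 TPM after VB-127, with 1 of 5 vindeburnol libraries above the VB-127 mean, a log2 difference of -0.37 (SE 0.21, adjusted p 0.9999).

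Of 20 partner genes, which cover calmodulin and its kinase, release-site scaffolds, calcium-activated potassium channels and ryanodine receptors, 19 were tested and limma called 0 in each comparison. Against controls, 14 had values above 0 after vindeburnol and 17 after VB-127, again beside 69.7% and 79.4% of all genes, with medians of 0.10 and 0.12. At an unadjusted p under 0.05, 0 and 1 were higher, beside 6.95% and 9.67% of all genes. That 1 was Ryr3, a calcium release channel of the endoplasmic reticulum, at 6.79 TPM after VB-127 against 4.29 TPM in controls, a log2 difference of 0.68 (SE 0.24, adjusted p 0.4666). Its relative Ryr2 averaged 18.8 TPM after VB-127 and 14.4 TPM in controls, differing by 0.42 on the log2 scale (SE 0.23, adjusted p 0.5354), and the calmodulin gene Calm3 at 0.11 (SE 0.06, adjusted p 0.5228). After vindeburnol, Kcnn1, a small-conductance potassium channel gene opened by calcium, and the kinase gene Camk2b differed by 0.28 (SE 0.14, adjusted p 0.6123) and 0.23 (SE 0.12, adjusted p 0.6168), each above the control mean in 5 of 5 libraries. Between the compounds, 6 of the 19 had values above 0, beside 38.9% of all genes, with a median of -0.03. Kcnn1, Ryr3 and the adaptor gene Stac2 had the smallest p of the partners, with log2 differences of 0.22, -0.38 and -0.16 and an adjusted p of 0.9999 each.

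The channel genes varied together between libraries of a group. After the group means were removed from log2(TPM + 1), the correlation was positive for 45 of 45 pairs, with a median Pearson r of 0.64 and a range of 0.33 to 0.93 over 17 libraries. Without control replicate 4, which was left out after seeing the data, all 45 were above 0, with a median of 0.53 and a range of 0.08 to 0.87. The points of a pair share libraries and their composition, so these values are a description. The closest pair was Cacna1b and Cacna2d2, with r of 0.93, and the loosest Cacna1a and Cacna2d1, with r of 0.33. Against all tested genes the median r of a channel gene lay between 0.30 for Cacna1h and 0.47 for Cacna1d. The gene most like each member, by the same measure, was Nfasc for Cacna1b (r = 0.94), Kif1a for Cacna2d2 (0.94), Nexmif for Cacna2d1 (0.96), Trim66 for Cacna1i (0.96) and Rapgef3 for Cacna1e (0.95). It was Mllt6 for Cacna1d (0.94), Ppp4r1l-ps for Cacna1c (0.94), Hbs1l for Cacna1a (0.93), Myef2l for Cacna1g (0.90) and Spata7 for Cacna1h (0.87). Without control replicate 4 these 10 values ran from 0.83 for Cacna2d2 to 0.96 for Cacna1i.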

How the data were processed

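Libraries of poly(A) RNA were directional, per the labels' protocols, and the sources used here do not state whether strand was used in quantification. STAR, Salmon and the builds GRCm39 and mm39 are named in the submitters' processing notes, without versions or roles. The deposited values are TPM for 78298 genes per library, made by the authors before deposit, and sum to the same total in each library. TPM keeps no read depth, so the depth is unknown and no counting interval is given; precision rests on the number of libraries.

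A pseudocount of 1 was added before taking log2. Genes with at least 1 TPM in at least 5 libraries were tested, 16153 in all. limma 3.58.1 with statmod 1.5.0 in R 4.3.3 fitted the 3 group means over 17 libraries (eBayes, trend and robust), and two-sided p-values were adjusted over all genes tested by the Benjamini-Hochberg method. The fit was tested on simulated data. No 2 libraries held identical values.

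The genes, lists and rules were chosen with earlier results of these data known. All 10 channel genes are named in every comparison, with, per comparison, the 4 genes of smallest p from both lists together, and for each channel gene the gene with the highest r. The genes used to check the tissue and the cells were named beside a result. One of the noradrenergic markers is not reported here and was left out of the list. Transcript lengths and coding status come from GENCODE M21 and promoter sequences from RefSeq on GRCm38.p6, matched by gene identifier or symbol; 15303 of the genes tested had a length. Alternatives covered the pseudocount, the filter, scaling, Bc1, library weights, the groups in the fit, a replicate block, 2 covariates and each library left out. A second table of the whole series was not used here.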

Additional observations from a re-analysis of the deposited data

Results flagged for a closer look

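Of 30 sets of libraries examined, 10 genes in 3 groups, 3 had a library far from the rest by Dixon's test, which chance alone gives in about 1 in 20 sets. Cacna1d in vindeburnol replicate 2 was at 19.3 TPM, while the others of its group ran from 7.16 to 10.01 TPM. Cacna1b in VB-127 replicate 5 was at 23.8 TPM, while the others ran from 12.8 to 16.6 TPM. Cacna1a in VB-127 replicate 3 was at 36.5 TPM, while the others ran from 31.8 to 33.4 TPM. Vindeburnol replicate 2 and VB-127 replicate 5 had the 2 smallest shares of TPM in Bc1, 16.1% and 16.7%, and long-transcript indices of 0.17 and 0.17. VB-127 replicate 3 had a Bc1 share of 22.2% and an index of -0.08. The part of these measures in the flagged values was not tested.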

How the results depend on the processing

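Across 27 alternatives to each comparison, limma called 0 of the 10 channel genes in every one. The log2 differences of Cacna1g, Cacna1d, Cacna1h, Cacna1a, Cacna1c and Cacna2d2 against controls stayed above 0 throughout for both compounds. Some alternatives cannot change these differences: dropping the filter, fitting only the 2 groups compared, and leaving out a library of the group not compared. Nor can the replicate block for VB-127, whose libraries carry the same replicate numbers as the controls. For Cacna1g the log2 differences ran from 0.54 to 0.94 for vindeburnol (adjusted p 0.145 to 0.953) and from 0.57 to 0.90 for VB-127 (adjusted p 0.216 to 0.712).

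Over all genes, vindeburnol against controls gave 0 calls, but 1 after rescaling without Bc1, 1 with library weights, 4 with the pan-neuronal covariate and 2 with the long-transcript covariate. VB-127 against controls gave 1 call, but 0 with a pseudocount of 0.1, 0 without the filter, 3 with library weights, 2 with only the 2 groups compared in the fit and 0 to 1 with 1 library left out, the call being lost without VB-127 replicate 4, 5 or 6 or control replicate 4 or 5. Libraries with the same replicate number did not deviate together (median r -0.04 over 16 pairs, 1 above 0.1). Pairs with different numbers had a median r of 0.02 over 80 pairs, 10 above 0.1. These values gave no sign of pairing but cannot settle whether the numbers mark shared handling. With a replicate block VB-127 against controls gave 0 calls.

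Some small differences changed sign, and the cause was not tested. For vindeburnol against controls, Cacna1e and Cacna2d1 were at -0.068 and -0.013 with library weights and Cacna1e at -0.023 with the long-transcript covariate; with 1 library left out they ran from -0.042 to 0.23 and from -0.0073 to 0.25. For VB-127 against controls, Cacna1b, Cacna1e and Cacna2d1 were at -0.024, -0.0015 and -0.017 under median-ratio scaling, -0.053, -0.033 and -0.030 under quantile normalization and -0.055, -0.036 and -0.023 with the long-transcript covariate. Cacna1b was at -0.0093 with the pan-neuronal covariate, and with 1 library left out the 3 genes ran from -0.098 to 0.20, -0.014 to 0.24 and -0.045 to 0.21, lowest without control replicate 4. For vindeburnol against VB-127, Cacna1e was at 0.022 under median-ratio scaling, 0.038 under quantile normalization, 0.030 with the replicate block, 0.072 with the pan-neuronal and 0.014 with the long-transcript covariate. With library weights Cacna1g, Cacna1h and Cacna2d1 were at -0.13, -0.011 and -0.083, and with the pan-neuronal covariate Cacna2d2 was at 0.0073. With 1 library left out, Cacna1d ran from -0.011 to 0.32, Cacna1e from -0.15 to 0.080, Cacna1g from -0.091 to 0.11 and Cacna2d1 from -0.058 to 0.11. The median of the 10 genes between the compounds was -0.11 with library weights, -0.07 without vindeburnol replicate 2 and -0.06 without VB-127 replicate 2. Depth is unknown, so no limit from depth can be given; 5 or 6 libraries a group limit the precision.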
